A study of Bos taurus with 28 samples.

Results

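AIF1L and PLAC8A are a pair of genes that stood among the largest falls in the liver of ketotic cows, and their values are described here probe by probe, by dye and by way of scaling. They were found by the gene symbol in the platform annotation, which names 2 probes for AIF1L and 1 probe for PLAC8A, so 2 of 6958 tested genes and 3 of 10420 tested probes are meant. They were picked because of the difference between ketotic and healthy cows, so that difference is given as a description, without a test. Among the 865 genes that fell, AIF1L had the third largest difference and PLAC8A the sixth. The gene just inside PLAC8A in that order was LSS, the lanosterol synthase, with a difference of -1.81 on the log2 scale, and the gene just outside was MRPL58, a protein of the mitochondrial ribosome, with -1.66.

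The study compared liver RNA of 7 healthy and 7 ketotic cows. All were multiparous Holstein cows, judged healthy on day 4 after calving and then put into a group at random. Healthy cows were fed ad libitum. Ketotic cows received 50% of their intake of day 4, from day 5 in the design text and from day 4 in the sample labels, until clinical ketosis or day 14; the sources used here do not state the day of liver sampling. Each liver RNA was hybridised on 2 microarrays with the dyes exchanged, once labelled with Cy3 and once with Cy5, against a reference RNA pooled from several cattle tissues. Values are therefore log2 ratios of liver over reference, centred on the median probe of each array: a value of 0 means the ratio of the median probe, and a difference of 1 is a doubling. Both arrays of a cow were averaged to 1 value.

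AIF1L encodes a small calcium-binding protein with EF-hand motifs that binds and bundles actin filaments. Its close relative AIF1, also called Iba1, does the same in macrophages and is a standard marker of those cells. PLAC8A is the bovine PLAC8 gene copy A and encodes a small cysteine-rich protein; PLAC8 is known from placenta, uterus, leukocytes and several epithelia, and has been linked to fusion of autophagosomes with lysosomes and to C/EBP-beta in brown fat of mice. In the gene table of assembly ARS-UCD2.0, PLAC8A and PLAC8B lie on the same chromosome with 0 protein-coding genes between them. How far the spots of one copy also bind RNA of the other, or those of AIF1L bind RNA of AIF1, was not tested.

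The arrays held 27648 spots, printed as 13824 probes on adjacent spots, and their deposited medians ran from -1.06 to 2.12 on the log2 scale. All 9 measured hepatocyte markers, ALB among them, had healthy means above 0. Healthy cow 7 stood apart over all probes: it correlated with its group at a median of 0.408, against 0.870 to 0.887 for the other healthy cows. Results that rest on that cow are given with and without it. Spots lacking a ratio made up a median of 10.6% in healthy and 16.2% in ketotic cows, with the highest share, 25.0%, in ketotic cow 5. Over all genes the median difference was -0.18, and 12.4% of genes fell while 0.92% rose (limma, Benjamini-Hochberg adjusted p under 0.05; 10.1% of probes passed in either direction). Without healthy cow 7, 19.9% of genes passed, 18.4% falling and 1.5% rising. The livers were measured in bulk, so fewer cells of a type and less RNA per cell cannot be told apart.

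AIF1L went from above the median ratio in healthy liver to below it in ketotic liver. At the first AIF1L probe, the log2 ratio ran from 0.52 to 1.60 over the 7 healthy cows, with a median of 1.05. Over the 7 ketotic cows it ran from -2.42 to -0.22, with a median of -1.57. All healthy cows were positive and all ketotic cows negative, and the groups did not overlap. The means were 1.07 ± 0.363 (SD, n = 7) and -1.37 ± 0.805 (SD, n = 7), a difference of -2.43 (SE 0.312), or 5.40-fold lower. The highest ketotic cow at this probe was cow 7 and the lowest was cow 5.

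The second AIF1L probe, which has a clone of its own in the annotation, gave the same picture at a lower level. Its log2 ratio ran from -0.31 to 1.28 (median 0.54) over the healthy cows and from -3.01 to -0.97 (median -2.19) over the ketotic cows. The groups again did not overlap; the lowest healthy value was that of healthy cow 7, and the highest ketotic value that of ketotic cow 7. The means were 0.53 ± 0.510 (SD, n = 7) and -2.13 ± 0.695 (SD, n = 7), a difference of -2.66 (SE 0.305), or 6.31-fold lower. Without healthy cow 7 the difference was -2.44 at the first probe and -2.80 at the second. Over the mean of both probes, the difference was -2.55 (SE 0.287), 5.84-fold lower.

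PLAC8A was low in liver relative to the reference in both groups, and lower still in ketotic cows. Its log2 ratio ran from -3.11 to -1.46 (median -2.29) over the 7 healthy cows. It ran from -4.72 to -3.23 (median -4.13) over the 6 ketotic cows with a value on both arrays. These groups did not overlap, with 0.12 on the log2 scale between the highest ketotic and the lowest healthy cow. The means were -2.37 ± 0.656 (SD, n = 7) and -4.08 ± 0.579 (SD, n = 6), a difference of -1.71 (SE 0.321), or 3.28-fold lower. Without healthy cow 7, which had the highest value of its group, the difference was -1.56. Ketotic cow 5 had no PLAC8A ratio with the liver in Cy3; its other array gave -1.24, above the other ketotic cows and within the range of the healthy cows on that dye. Counting that single array, the difference was -1.31. As background, all ketotic values lay below all healthy ones at 4.42% of probes and 5.39% of genes, and 9.06% of probes fell; because the members were chosen on this contrast, nothing is read from their place in those shares.

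**Figure D1:**
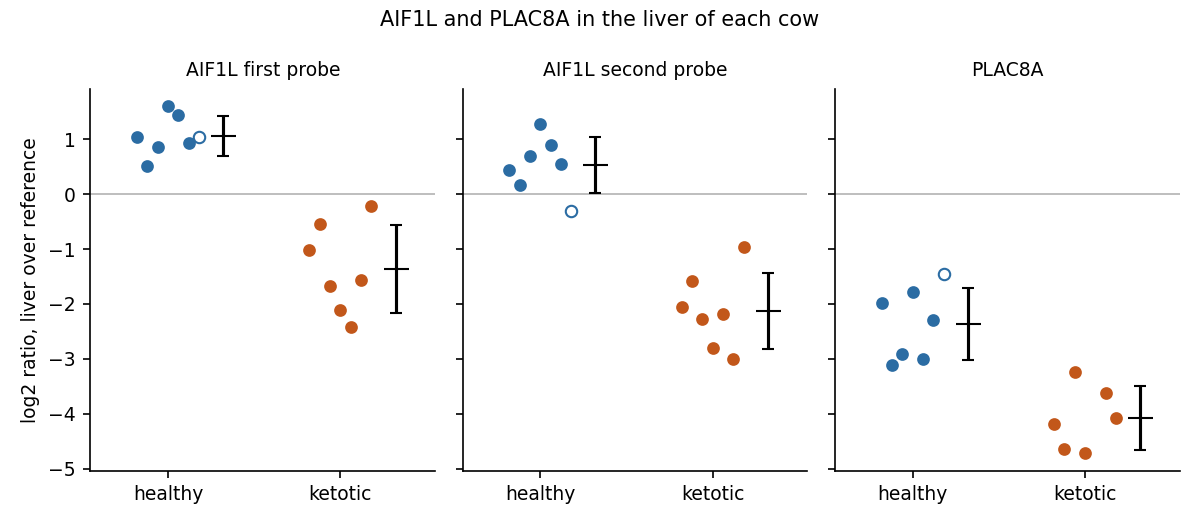
Log2 ratio of liver over reference (vertical axis, 0 is the median probe of the array) for both AIF1L probes and PLAC8A, with 1 point per cow and the group mean ± SD beside the points; the open symbol is healthy cow 7. The ketotic cows lie below all healthy cows in each panel, and ketotic cow 5 is missing for PLAC8A.

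Against the other probes, both genes changed place. The healthy mean of the first AIF1L probe was above that of 89.2% of probes, and its ketotic mean above that of 15.5%. For the second probe the shares were 74.1% and 6.06%. PLAC8A was above 2.64% of probes in healthy and above 0.547% in ketotic liver, so it was at the low end of the ratios in both groups. These shares rank ratios to the reference, not amounts of RNA, and say nothing of which gene is more abundant in liver.

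The spots of a probe on one array lay closer together than the cows of one group, which the arrays of a cow did not at PLAC8A. The 2 spots of a probe on the same array differed by a median of 0.232 at the first AIF1L probe, 0.223 at the second and 0.199 at PLAC8A, on the log2 scale. The 2 arrays of a cow differed by a median of 0.303, 0.595 and 0.772 at the same probes. The pooled SD between cows of a group was 0.625, 0.610 and 0.622, so at PLAC8A the typical difference between the dyes was larger than that SD. Single spots went further: on the array of ketotic cow 5 with the liver in Cy5, the spots of the first AIF1L probe lay 4.28 apart, and at PLAC8A the widest gap was 1.60 on an array of ketotic cow 1. A ratio was present at 56 of 56 spots for the first AIF1L probe, 55 of 56 for the second and 51 of 56 for PLAC8A, and none of these was at the ceiling of the deposited values. With the first spot of each pair alone, the group difference was -2.14 at the first AIF1L probe, -2.42 at the second and -1.79 at PLAC8A. With the second spot alone it was -2.73, -2.74 and -1.32. Every PLAC8A spot lacking a ratio was on an array of a ketotic cow. The second-spot value of PLAC8A leaves out ketotic cows 2, 4 and 5 for that reason. Cows 2 and 4 had the lowest PLAC8A values of the ketotic group.

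Each cow has 1 array with the liver in Cy3 and 1 with the liver in Cy5, so the difference between the groups can be read with each dye on its own. At the first AIF1L probe the group difference was -2.54 with the liver in Cy3 and -2.32 with the liver in Cy5. At the second it was -2.73 and -2.59. The ketotic cows lay below all healthy cows at both AIF1L probes with either dye, as at 2.99% of all probes with the liver in Cy3 and 1.68% with the liver in Cy5. These per-dye differences are the components of the value the genes were chosen on, so they are a description. At PLAC8A the difference was -2.07 with the liver in Cy3, where the groups did not overlap, and -1.04 with the liver in Cy5, where they did. On the Cy5 arrays PLAC8A ran from -2.97 to -0.15 (median -2.49) in healthy cows and from -4.16 to -1.24 (median -3.23) in ketotic cows. The upper ends were set by healthy cow 7 and ketotic cow 5, and the next healthy cow on that dye stood at -1.65. On the cows with a value on both arrays the Cy5 difference was -1.36. That set leaves out ketotic cow 5 but keeps healthy cow 7, whose high value widens the difference.

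The choice of the genes did not use the difference between the dyes within a cow, and the test of whether it depends on the group found no call. Liver in Cy5 minus liver in Cy3 differed between ketotic and healthy cows by 0.22 at the first AIF1L probe (95% interval -0.25 to 0.69, limma adjusted p = 0.895), by 0.14 at the second (-0.49 to 0.78, adjusted p = 0.953) and by 0.70 at PLAC8A (-0.20 to 1.60, adjusted p = 0.870). Among all 10420 probes, 0% passed this test with limma, and 5.46% had an unadjusted p under 0.05. The intervals leave room for dye differences of these sizes, widest at PLAC8A. There healthy cow 7 stood at 2.62, the other healthy cows ran from -0.40 to 0.40 and the ketotic cows from 0.77 to 2.08. Leaving out each cow in turn, the PLAC8A value ran from 0.53 to 1.06, highest without healthy cow 7. Its limma adjusted p stayed between 0.776 and 0.960. The dye itself did move the ratios: averaged over the groups, the ratio was higher with the liver in Cy5 by 0.85 (SE 0.209) at PLAC8A (limma adjusted p = 0.00809) and by 0.48 (SE 0.149) at the second AIF1L probe (adjusted p = 0.0236). At the first AIF1L probe the dye difference was 0.17 (SE 0.110, adjusted p = 0.247). Such a dye difference passed at 32.1% of probes.

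**Figure D2:**
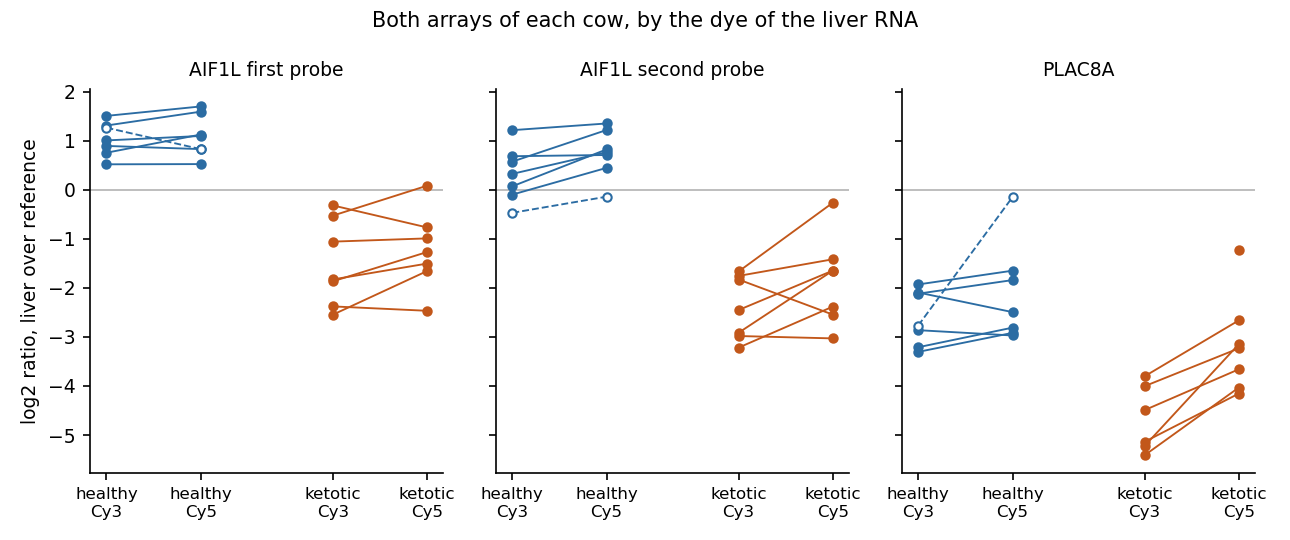
Log2 ratio of liver over reference (vertical axis) on each array, by group and by the dye of the liver RNA, with a line joining both arrays of a cow and the dashed line for healthy cow 7. For AIF1L the groups stay apart with either dye; for PLAC8A the ketotic lines climb from Cy3 to Cy5, healthy cow 7 climbs by 2.62, and ketotic cow 5 has a Cy5 array only.

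The 2 AIF1L probes were also set against each other. The first probe read higher than the second by 0.53 ± 0.390 (SD, n = 7) in healthy and by 0.76 ± 0.520 (SD, n = 7) in ketotic cows. The gap between the probes differed between the groups by 0.23 (two-sided exact permutation p = 0.372, smallest possible p 0.000583), and by 0.36 without healthy cow 7 (exact permutation p = 0.132). Across cows within a group, the probes correlated at r = 0.648 in healthy cows (exact permutation p = 0.108, rho = 0.571, p = 0.200, n = 7). In ketotic cows they correlated at r = 0.769 (exact permutation p = 0.0393, rho = 0.679, p = 0.110, n = 7). Adjusted over the 4 relations computed here, the p of r was 0.215 and 0.157, and that of rho 0.400 in both groups. Without the 2 cows farthest from the median, r was 0.297 in healthy and 0.170 in ketotic cows. Without healthy cow 7, r was 0.915 in healthy cows (exact permutation p = 0.0125, n = 6), and 0.661 over the 4 cows left after the 2 farthest were also removed. Neither group's relation passed after adjustment.

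Within a group, AIF1L and PLAC8A were not seen to move together from cow to cow. In healthy cows they correlated at r = 0.041 (exact permutation p = 0.925, rho = 0.143, p = 0.783, n = 7), and in ketotic cows at r = -0.187 (exact permutation p = 0.699, rho = 0.086, p = 0.919, n = 6). The adjusted p was 0.925 for both r and 0.919 for both rho. Without the 2 cows farthest from the AIF1L median, r was -0.085 and -0.876; without healthy cow 7, r was 0.477 in healthy cows (exact permutation p = 0.358, n = 6). With 6 or 7 cows only a strong relation could pass. Ketotic cow 7, with the highest AIF1L value of its group, had a PLAC8A value of -4.08, close to the group mean. No correlation is given over both groups together, since the groups form separate clusters by the choice of the genes.

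**Figure D3:**
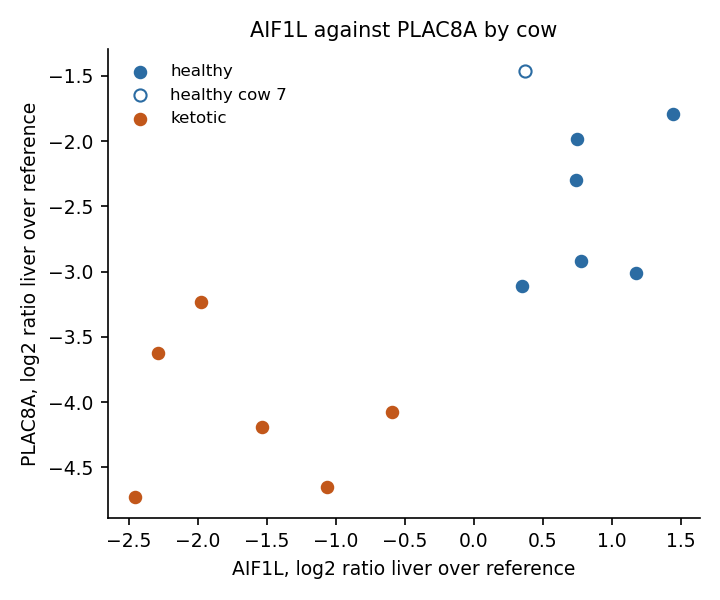
Each cow's AIF1L (horizontal axis, mean of both probes) against its PLAC8A (vertical axis), both as log2 ratios of liver over reference, for 7 healthy and 6 ketotic cows. The groups occupy opposite corners because both genes were chosen on that difference, while within a group the points show no common slope.

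The related genes AIF1 and PLAC8B were named for their relation to the members, not for their difference between the groups, and were tested. As for all tests here, earlier results of these data were known. AIF1, the macrophage relative of AIF1L, was far above the median ratio in liver: it ran from 3.32 to 4.47 (median 3.85) over 6 healthy cows and from 0.85 to 3.51 (median 2.90) over 7 ketotic cows. The groups overlapped, with 5 of 7 ketotic cows below the lowest healthy cow. AIF1 was 2.42-fold lower in ketotic cows, a log2 difference of -1.27 (SE 0.379, limma adjusted p = 0.0394). That call was lost when healthy cow 1, 2, 3, 5 or 6 or ketotic cow 5 or 7 was left out, and over 26 alternatives its adjusted p ran from 0.00653 to 0.490, with 12 past the threshold. Healthy cow 7 had no AIF1 ratio with the liver in Cy5, and so no mean of both arrays. Its Cy3 array gave 1.08, below the other healthy cows on that dye. Counting that single array, the AIF1 difference was -0.87 (limma adjusted p = 0.317). The spots of AIF1 on an array differed by a median of 0.637, more than at any AIF1L or PLAC8A probe.

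PLAC8B, the neighbouring copy of PLAC8A, was above the median ratio in liver, unlike PLAC8A. It ran from 0.19 to 1.56 (median 1.10) over the healthy and from -0.13 to 1.02 (median 0.85) over the ketotic cows, and the groups overlapped. The difference was -0.44 (SE 0.229, limma adjusted p = 0.219). Healthy cow 7 was the lowest healthy cow; without it the difference was -0.59 (limma adjusted p = 0.0407). Over 27 alternatives the adjusted p ran from 0.0407 to 0.574, with 2 past the threshold, the other being the values as deposited.

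**Figure D4:**
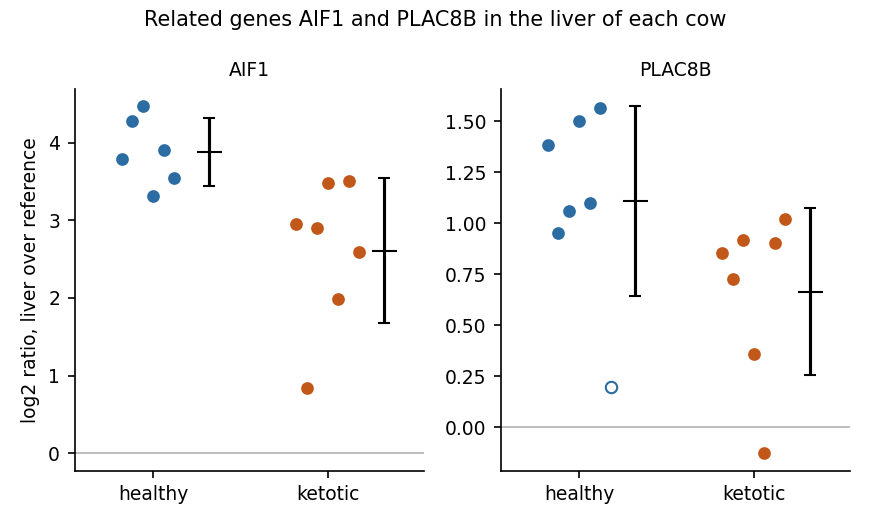
Log2 ratio of liver over reference (vertical axis) for AIF1 and PLAC8B, with 1 point per cow, the group mean ± SD beside the points and healthy cow 7 as an open symbol (no AIF1 value). In both panels the ketotic and healthy cows overlap. All ketotic values lay below all healthy ones at 4.42% of probes. AIF1L and PLAC8A were chosen on this contrast, so no comparison with them is made.

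Other genes with EF-hand motifs were lower in part. Of 26 measured genes 8 (30.8%) fell and none rose, with a median difference of -0.48. Over all genes 12.4% fell, with a median of -0.18. AIF1, described above, is among the 8. S100A10, the annexin A2 partner, fell 2.37-fold (limma adjusted p = 0.00671). NUCB1, a calcium-binding protein of the Golgi, fell 1.83-fold (adjusted p = 0.0127), CIB1, an integrin-binding protein, 1.73-fold (adjusted p = 0.0155) and CALM3, a calmodulin gene, 1.57-fold (adjusted p = 0.0204). The count was 5 without healthy cow 3 and 5 without ketotic cow 7, and it was 3 with arrays scaled to one spread or quantile-normalised, 17 on the values as deposited and 1 with the share of missing spots as a covariate. The share of all genes that fell moved with these settings, to 7.40%, 7.72%, 35.4% and 2.08%. No gene of this list passed in limma with the liver in Cy5 alone (7 at an unadjusted p under 0.05), where 11 of all genes fell.

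Genes that bundle or crosslink actin, the known activity of AIF1L, were called in smaller number. Of 27 measured genes 5 (18.5%) fell and none rose, with a median of -0.34, against 12.4% and -0.18 over all genes. MARCKSL1, a membrane-bound actin regulator, fell 1.65-fold (limma adjusted p = 0.0198), PLS3, plastin 3, 1.85-fold (adjusted p = 0.0289), LASP1, a focal adhesion protein, by 0.59 on the log2 scale (adjusted p = 0.0367) and CNN3, a calponin, 1.76-fold (adjusted p = 0.0375). LASP1 and CNN3 each passed in 12 of their 27 and 26 alternatives. Single cows moved this count: it was 8 without healthy cow 7, 1 without healthy cow 6 or ketotic cow 7, 2 without healthy cow 2, and 3 without healthy cow 1, 3 or 5 or ketotic cow 1, 2 or 4. It was 1 with arrays scaled to one spread or quantile-normalised, 2 with arrays centred on the same probes, where 7.92% of all genes fell, 16 as deposited and 0 with the covariate (limma; 6 at an unadjusted p under 0.05).

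Of 35 measured genes of actin assembly, 11 (31.4%) fell and none rose, with a median of -0.48, against 12.4% and -0.18 over all genes. RHOA, the small GTPase that sets up stress fibres, fell 1.85-fold (limma adjusted p = 0.00308). ARPC2 of the Arp2/3 complex fell 1.81-fold (adjusted p = 0.00329), BRK1 of the WAVE complex 1.92-fold (adjusted p = 0.00332) and TMSB10, a thymosin that binds actin monomers, 2.20-fold (adjusted p = 0.00510). The count ran from 10 to 14 when a cow was left out. It was 5 with arrays scaled to one spread, 6 with quantile normalisation, 24 as deposited and 3 with the covariate. In the same order, 515, 537, 2466 and 145 of all 6958 genes fell. With the liver in Cy5 alone, no gene of the actin assembly or actin bundling list passed in limma (13 and 6 at an unadjusted p under 0.05). On that dye 11 of 7633 genes fell.

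Of the pathways linked to PLAC8, the autophagy list was called at about the share of all genes, and no C/EBP gene passed. Of 33 measured genes of autophagy and lysosome fusion 5 fell and none rose, with a median of -0.26; the count was 13 as deposited and 1 with the covariate. MAP1LC3B, which coats autophagosomes, fell 2.27-fold (limma adjusted p = 0.00383), its relative GABARAP 1.57-fold (adjusted p = 0.00571), RAB7A, the GTPase of late endosomes, by 0.68 on the log2 scale (adjusted p = 0.00780) and VPS33A of the HOPS tethering complex 1.54-fold (adjusted p = 0.0104). The autophagy list's share of 15.2% was near the 13.4% of all genes that passed, 12.4% falling, so nothing is read from that count. Of 9 measured genes of C/EBP factors and thermogenesis none passed with limma (1 at an unadjusted p under 0.05). In so short a list nothing is read from that, with 13.4% of all genes passing. CEBPD had the smallest p, with a difference of -0.39 (limma adjusted p = 0.126). PPARGC1A, a coactivator of mitochondrial genes, had a difference of 0.44 (limma adjusted p = 0.278).

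Of 19 measured genes of the interferon response, 3 fell and none rose, with a median of -0.26. That share of 15.8% was near the 13.4% of all genes that passed. The count was 1 with arrays scaled to one spread, 2 with quantile normalisation, 9 as deposited and 1 with the covariate. The genes that fell were IFI35 (2.04-fold, limma adjusted p = 0.0106), PSMB9, an immunoproteasome subunit (2.06-fold, adjusted p = 0.0155) and IFI30, a lysosomal thiol reductase (2.01-fold, adjusted p = 0.0204). IFI6, an interferon-induced protein, stood at -0.85 on the log2 scale (adjusted p = 0.0702). With healthy cow 7 left out, 5 fell and 1 rose.

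Markers of immune cells, in which AIF1 and PLAC8 are also known, passed in both directions. Over all genes 12.4% fell and 0.92% rose. Of 9 measured macrophage markers 4 (44.4%) fell and none rose: CD74 (1.84-fold, limma adjusted p = 0.00597), LAPTM5 (1.94-fold, adjusted p = 0.00731), CTSS (2.10-fold, adjusted p = 0.0182) and AIF1, described above. C1QB (-0.80), C1QC (-0.23), CD14 (-0.18), MARCO (-0.15) and C1QA (0.10) did not pass (limma adjusted p from 0.195 to 0.928). In limma no macrophage marker passed with the covariate (5 at an unadjusted p under 0.05) or with the liver in Cy5 alone (3). The median log2 ratio of that list ran from 0.49 to 3.08 over healthy and from 0.92 to 2.71 over ketotic cows, so the groups overlapped; LAPTM5 had a healthy mean of -1.19 and CD74 of 0.19. Among 6 markers of lymphocytes, the cytotoxic granule gene GNLY was lower 1.61-fold (adjusted p = 0.0339) and the B cell gene CD79B higher 1.80-fold (adjusted p = 0.0275). GNLY lost its call without healthy cow 1, 4 or 6 or ketotic cow 1, 2, 4 or 6, and CD79B without healthy cow 5 or 6. The median of that list ran from -0.13 to 0.41 over healthy and from -0.70 to 0.17 over ketotic cows. Of 5 neutrophil markers MMP9 rose 2.38-fold (adjusted p = 0.0477), with list medians from 0.38 to 1.16 and from 0.46 to 1.12. MMP9 passed in 7 of 21 alternatives, lost its call without healthy cow 5 or 6 or ketotic cow 4, 6 or 7, and with healthy cow 7 left out could not be tested. The part of these cells in the AIF1L and PLAC8A values was not tested.

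The lists of other cell types were short, with 2 to 9 measured genes each. Over all genes 12.4% fell and 0.92% rose. Of 6 genes listed as bile duct markers only KRT8 (16.7%) fell, from a mean of -2.07 to -3.07 (limma adjusted p = 0.00984). KRT18, KRT19, SPP1, CFTR and EPCAM did not pass (limma adjusted p from 0.113 to 0.954), so no bile duct signal is read from KRT8. Of 9 hepatocyte markers APOA1 (1.82-fold, limma adjusted p = 0.0208) and ALB (3.06-fold, adjusted p = 0.0228) rose, 22.2% of the list. Neither APOA1 nor ALB passed with arrays scaled to one spread, quantile normalisation, the liver in Cy5 alone or the missing-spot covariate. APOA1 also lost its call as deposited and with the liver in Cy3 alone. The hepatocyte list median was 0.51, but -0.42 with arrays scaled to one spread and -0.08 with the covariate. None passed with limma among 8 stellate and fibroblast, 4 endothelial, 2 blood and 2 adipocyte markers, of which 1, 1, 1 and 0 had an unadjusted p under 0.05. The ketotic minus healthy difference of the blood markers was 0.61 for AHSP and 0.28 for SLC4A1 on the log2 scale. The smallest adjusted p in those lists was 0.0752 for DCN, 0.0872 for VWF, 0.164 for AHSP and 0.261 for LEP. Without healthy cow 7, APOB and DCN also fell (limma adjusted p = 0.0412 and 0.0409), and EPCAM was the second gene of the bile duct list to fall (adjusted p = 0.0490).

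The genes whose cow-to-cow pattern was most like AIF1L were found on values centred on the group mean, so that the difference between the groups played no part. They were ranked over 6289 genes by the lower of r over all cows and r without healthy cow 7. AHR, the aryl hydrocarbon receptor, came first (r = 0.738 over 14 cows, 0.797 without healthy cow 7), then TLR5, the flagellin receptor (0.738 over 13 cows and 0.730), FSCN1, the actin-bundling fascin (0.729 over 13 cows and 0.730), FADS2, the delta-6 desaturase (0.730 over 14 cows and 0.712), and COPZ2, a coatomer subunit (0.711 over 14 cows and 0.749). Of these only FADS2 passed between the groups (limma adjusted p = 0.0147). FSCN1 had a difference of -0.31 (adjusted p = 0.301), and AHR one of -0.49 (adjusted p = 0.317).

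Most like PLAC8A were NCAPH2, a condensin subunit (r = 0.848 over 13 cows, 0.805 without healthy cow 7), GSK3A, a glycogen synthase kinase (0.817 and 0.801), TIMM17A of the mitochondrial import channel (0.823 and 0.798), UMPS, the enzyme of pyrimidine synthesis (0.798 and 0.862), and GNLY, the granulysin of cytotoxic lymphocytes (0.830 and 0.788). UMPS fell by 0.62 (limma adjusted p = 0.0262), and GNLY by 0.68 (adjusted p = 0.0339). No gene was among the 5 most like both. On the same centred values AIF1L and PLAC8A had r = -0.084 over 13 cows and 0.038 without healthy cow 7. These coefficients are the highest of all genes compared, over at most 14 cows that share arrays and scaling, so they are a description and carry no p.

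The size of the group difference changed with the scaling, and its sign did not under the alternatives run. At the first AIF1L probe it ran from -2.83 on the values as deposited to -2.32 with arrays centred on the same probes. At the second it ran from -3.06 as deposited to -2.51 with arrays scaled to one spread. PLAC8A, at the low end of the ratios, depended more on the spread of the arrays: its difference was -2.05 as deposited, -1.63 with arrays centred on the same probes, -1.50 with quantile normalisation and -1.16 with one spread. The deposited values put the median of all genes at -0.58 and the same-probe centring at -0.07, against -0.18 here. With the share of spots lacking a ratio, which was higher in ketotic cows, as a covariate, the differences were -2.24, -2.84 and -1.50. Over all genes that covariate took the number that fell from 865 to 145 and the number that rose from 64 to 7. Leaving out each cow in turn, they stayed between -2.62 and -2.26, between -2.85 and -2.51, and between -1.88 and -1.56.

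**Figure D5:**
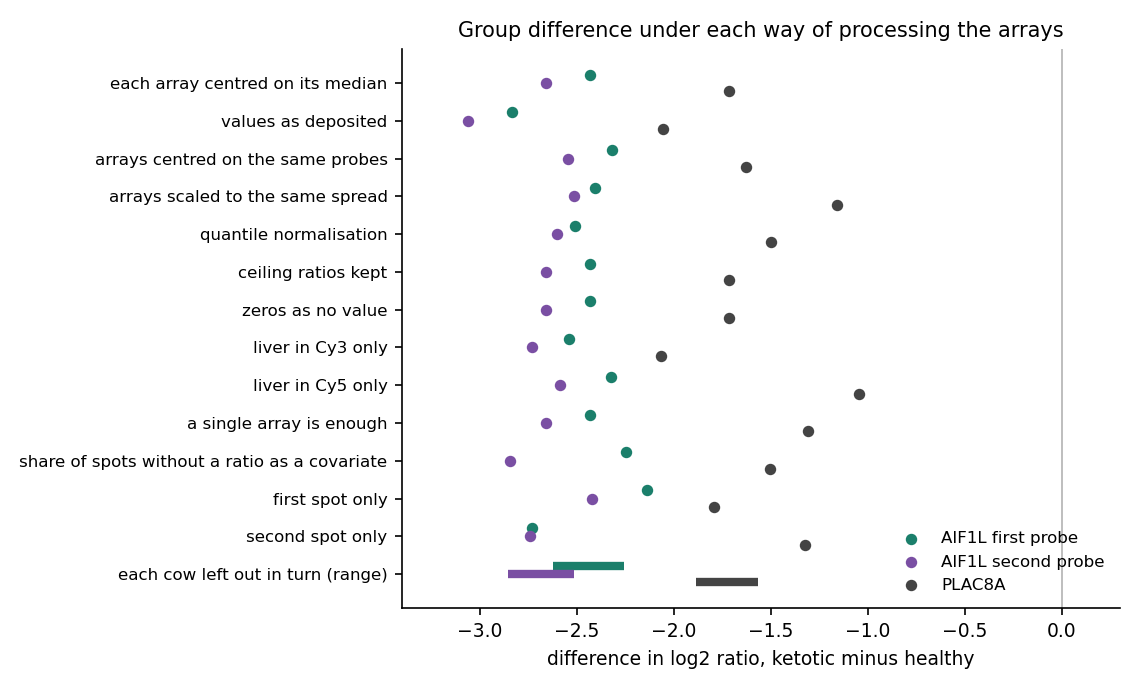
Difference in log2 ratio, ketotic minus healthy (horizontal axis), for both AIF1L probes and PLAC8A under each way of processing the arrays (vertical axis), with bars for the range over each cow left out in turn. The AIF1L values stay between -3.06 and -2.14, while PLAC8A runs from -2.07 with the liver in Cy3 to -1.04 with the liver in Cy5.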

How the data were processed

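The deposited values are log2 ratios of both dye channels, 1 per spot and array, on 28 arrays; how the authors made them was not given in the sources used here, and their scale, centring and direction stay unknown. Cy5 over Cy3 is the likely direction, with each sample title naming the dye of the liver: after arrays with the liver in Cy3 were sign-turned, the median of 10 hepatocyte marker probes was above 0 on 28 of 28 arrays. On 1 ketotic array both channels carry one dye in the label fields, and its title was used. Values at the ceiling of 16.61 (6245) and empty cells (103458) were read as no ratio. Adjacent spots, which correlated within an array at a median of 0.851, were averaged to probes, and each array was centred on its median probe. A probe needed a value on both arrays of at least 5 cows per group.

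Gene names came from the platform annotation, updated by gene ID with the ARS-UCD2.0 table, which held 8620 of 8645 probes with a single symbol; 105 had several symbols and 5074 none. Genes are means over their probes. Groups were compared with limma 3.58.1 (R 4.3.3, lmFit and eBayes, two-sided, Benjamini-Hochberg over all probes or genes, threshold 0.05); permutations and figures used scipy 1.17.1 and matplotlib 3.10.9. On simulated data the gene fit recovered 9.7% of log2 changes of 0.5, 63.6% of changes of 1 and 92.4% of changes of 2. The dye by group fit recovered 1.5%, 24.3% and 64.8% of them. A difference below 1 that did not pass is therefore not shown to be absent.

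The members, the 15 gene lists and the tests were chosen with earlier results of these data known. Genes were named by rule: the members and their relatives, up to 4 genes of a list by smallest p, the 5 genes most like each member, and the neighbours in the order of falls. Alternatives covered scaling, dyes, filters, spots and each cow left out. Cow numbers only name cows. Nothing says more of the replicates than that they are separate cows; the number of arrays limits the precision, and no hybridisation batch is given.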

Additional observations from a re-analysis of the deposited data

Results flagged for a closer look

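In 26 groups of 6 or 7 cows, the values of AIF1L, PLAC8A, AIF1 and PLAC8B, their differences between dyes, the gap between the AIF1L probes the correlation with the own group and the share of spots lacking a ratio were each examined for a cow at a distance from its group. In 3 of them there was one, healthy cow 7 each time, where chance gives about 1 in 20. At PLAC8A, liver in Cy5 minus liver in Cy3 was 2.62 in healthy cow 7, with the next healthy cow at 0.40. The first AIF1L probe lay 1.35 above the second in that cow, with the next healthy cow at 0.60. Its median correlation with its own group over all probes was 0.408, with the next healthy cow at 0.870. No cause was tested.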

How the results depend on the processing

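The group differences of both AIF1L probes moved by less than the spread between cows under every alternative run, and that of PLAC8A did so but for the liver in Cy5 alone (-1.04). Probes lower in ketotic cows numbered 944, and 2838 on values as deposited, 591 centred on probes present on all arrays, 543 scaled to one spread, 551 with quantile normalisation and 14 with the liver in Cy5 alone; leaving out a cow gave 592 (without healthy cow 6) to 1467 (without healthy cow 7). Probes higher numbered 106, and 21, 198, 33, 30 and 6 in the same order, with 51 to 182 when a cow was left out; healthy cows 1, 3, 6 and 7 and ketotic cows 4, 5 and 7 each moved that count by over 1.5 times. The dye difference within cows passed at the first AIF1L probe on values as deposited (0.65, limma adjusted p = 0.0483). It did not pass at the second with arrays centred on probes present on all arrays (0.38, limma adjusted p = 0.0543). The correlation of the AIF1L probes in healthy cows was 0.797 on values as deposited (exact permutation p = 0.0298 before adjustment). Of 322 list medians under alternatives, 15 moved by more than the spread between cows. No paired analysis was possible because cow numbers follow the order of deposit and pair no cows. The cause of these changes was not tested.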
